A study of Mus musculus with 8 samples.

Results

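The amino acid and peptide transporters of the mouse choroid plexus were examined, defined as every gene whose symbol belongs to the solute carrier families Slc1, Slc3, Slc6, Slc7, Slc15, Slc36, Slc38 or Slc43. The symbol alone chose the members, and 64 of the 23284 genes in the deposited count table matched. The choroid plexus, a sheet of epithelium over a vascular stroma, secretes cerebrospinal fluid. It was taken from CD1 mouse embryos at the embryonic stage E18.5. There were 4 groups of 2 libraries: epithelial cells sorted from the choroid plexus of the hindbrain, in the fourth ventricle, epithelial cells sorted from telencephalic (lateral ventricle) choroid plexus, whole hindbrain choroid plexus and whole telencephalic choroid plexus. Sorted cells were those carrying a red fluorescent protein driven by Ttr, the transthyretin gene of choroid epithelium, in mice labelled ICR (CD1). Both regions came from the same brains, whereas sorted and whole libraries came from different brains, and the labels do not say whether embryos were pooled. Where the labels do not separate animals from pools, p-values measure the spread between these libraries.

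Amino acid carriers at this barrier set the composition of cerebrospinal fluid, which holds far less of most amino acids than plasma. Sodium-coupled carriers (Slc1, Slc6 and Slc38) drive uptake against a gradient. Exchangers of Slc7 swap 1 amino acid for another and mostly need a heavy subunit from Slc3 to reach the membrane. Carriers of Slc15 and some of Slc36 use protons to move small peptides and amino acids, and Slc43 members are facilitators.

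Levels are in CPM, the counts of a gene scaled to a common library size after TMM scaling, from library totals of 8849053 to 31613434 counts. A difference was called at a Benjamini-Hochberg adjusted p below 0.05 in edgeR's quasi-likelihood test over the 15698 genes with enough counts, and fold changes are log2 values ± the standard error (SE) of the fit. Ttr stood at 158990 and 210680 CPM in hindbrain sorted cells, 281820 and 257040 CPM in telencephalic sorted cells, 139350 and 140860 CPM in whole hindbrain tissue and 187030 and 172090 CPM in whole telencephalic tissue. Of the 12 genes of the choroid epithelial list, all tested, 4 were lower and 0 higher in hindbrain than in telencephalic sorted cells. In whole hindbrain tissue 1 was lower. Of all genes, 6.12% were lower and 9.06% higher in hindbrain sorted cells, and 2.45% were lower in whole hindbrain tissue. In sorted cells, 5 were higher than in whole hindbrain tissue and 6 higher than in whole telencephalic tissue, and none was lower. The shares of all genes higher in sorted cells were 10.2% in hindbrain and 9.88% in telencephalic choroid plexus. The part of epithelial content in members that moved the same way was not tested. A chi-square statistic comparing the counts of the 2 libraries of a group, divided by its degrees of freedom, was 61.1 in hindbrain sorted cells. It was 15.8 in telencephalic sorted cells, 12.3 in whole hindbrain tissue and 5.16 in whole telencephalic tissue. This statistic uses raw counts, so it grows with library size and rests most on abundant genes. The Spearman correlation between the 2 libraries was 0.982, 0.989, 0.992 and 0.993 in the same order of groups. The ribosomal precursor transcript Rn45s lay at 63038 and 121360 CPM in hindbrain sorted cells, 166700 and 134010 CPM in telencephalic sorted cells and between 36017 and 41252 CPM in the 4 whole libraries, so it moved with region in sorted cells and with preparation; its part in the differences below was not tested.

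Of the 64 members, 51 were tested. The other 13 had no more than 11 counts in any library: Slc38a8, Slc36a2, Slc6a7, Slc7a9, Slc6a5, Slc7a13, Slc7a12, Slc6a14, Slc6a3, Slc7a15, Slc15a5, Slc6a19 and Slc36a3. Slc36a3 had no count in any library. In all, 29 members were called in at least 1 of 5 comparisons, and 22 tested members were called in none. The same tally was not made over all genes, so it has no background here. Backgrounds of the single comparisons are given below.

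**Figure D1:**
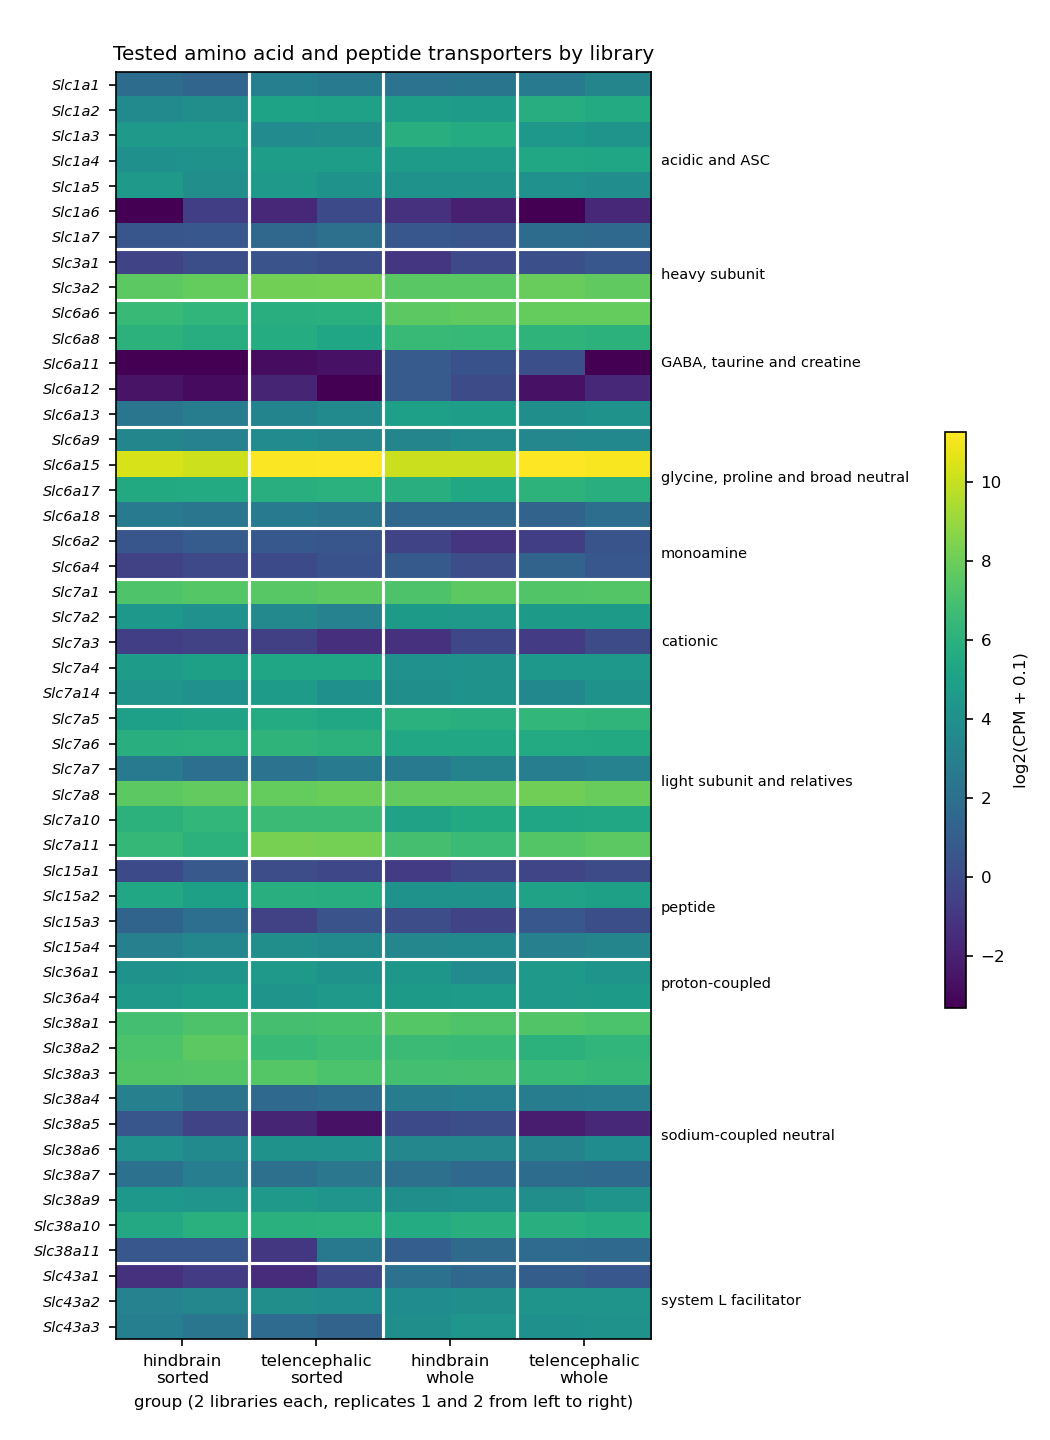
Heat map of log2(CPM + 0.1) for tested transporters, 1 row per gene grouped by role and 1 column per library, ordered hindbrain sorted, telencephalic sorted, hindbrain whole and telencephalic whole. Slc6a15 is the brightest row in all 8 libraries, and Slc6a11 has the lowest mean CPM of the rows drawn in each sorted group.

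Slc6a15, a sodium-coupled carrier of branched-chain amino acids and proline, was the member with the most reads. It took, with no correction for gene length, 39.9% of the summed CPM of the members in hindbrain sorted cells, 51.6% in telencephalic sorted cells, 35.3% in whole hindbrain tissue and 52.3% in whole telencephalic tissue. The sum over all members was 3115 and 3092 CPM in hindbrain sorted cells, against 4544 and 4708 CPM in telencephalic sorted cells, and 3101 and 3108 CPM in whole hindbrain tissue, against 4628 and 4293 CPM in whole telencephalic tissue. Without Slc6a15 the sums were 1800 and 1929 CPM in hindbrain sorted cells, against 2243 and 2236 CPM in telencephalic sorted cells. In whole tissue they were 2003 and 2015 CPM in hindbrain, against 2163 and 2091 CPM in telencephalic tissue.

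Levels of different genes were ranked per kilobase of merged exon (GENCODE M21, build GRCm38, a length for all 64 members; the authors' build was mm9). Averaged over the 8 libraries, Slc6a15 reached 228 CPM per kb. It was followed by Slc3a2 at 64.4 CPM per kb, the heavy subunit of the Slc7 exchangers. Slc7a8, a light subunit that exchanges neutral amino acids, stood at 46.0 CPM per kb. Next came Slc7a10, a carrier of small neutral amino acids, at 29.8 CPM per kb and Slc38a3, a glutamine carrier, at 25.1 CPM per kb. Slc6a15, Slc3a2 and Slc7a8 held the top ranks in each of the 4 groups.

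A pair of promoters is shown because they carry the amino acid response element, the site through which the starvation factor Atf4 acts, and because both genes were lower in hindbrain than in telencephalic choroid plexus in both preparations. The windows are 300 bases long and end 50 bases after the RefSeq start site (build GRCm38.p6, minus strand, matched by gene symbol), and capitals mark the letters TGATGNAA or their reverse complement. The Slc7a11 window is chr3:50443564-50443863 and holds 2 matches, which start 66 and 47 bases before the start site. The Slc1a4 window is chr11:20332664-20332963 and holds 1 match.
Slc7a11: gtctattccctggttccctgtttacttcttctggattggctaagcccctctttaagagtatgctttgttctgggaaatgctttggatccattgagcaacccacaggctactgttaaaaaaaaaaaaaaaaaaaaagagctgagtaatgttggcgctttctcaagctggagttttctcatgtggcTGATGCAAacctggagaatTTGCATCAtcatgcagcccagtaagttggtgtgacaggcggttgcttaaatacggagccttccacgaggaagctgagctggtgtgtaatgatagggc
Slc1a4: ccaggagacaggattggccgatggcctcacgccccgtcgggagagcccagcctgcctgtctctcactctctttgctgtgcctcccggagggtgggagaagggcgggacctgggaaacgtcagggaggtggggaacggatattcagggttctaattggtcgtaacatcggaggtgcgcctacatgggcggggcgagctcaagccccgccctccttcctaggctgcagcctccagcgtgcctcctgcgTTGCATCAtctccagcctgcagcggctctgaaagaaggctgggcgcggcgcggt
Both strands were searched. The motif was found in 3.97% of 32851 RefSeq promoter windows of this length. Windows were available for 45 members, 66 windows in all, and 4 members had a match: Slc15a5, Slc1a4, Slc7a11 and Slc7a7. Shares over all windows count windows and not genes, so counts of members cannot be set against them. The printed pair was picked by its levels as well as by the motif. Slc7a7 was called in no comparison, and Slc15a5 had too few counts to be tested. A link between the motif and the levels was not tested. The antioxidant response element, TGACNNNGC, was found in 12.4% of all windows and in those of 8 members, and in neither sequence above.

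In whole tissue, 8 transporters differed between hindbrain and telencephalic choroid plexus, 3 higher and 5 lower in hindbrain. Across all genes 5.79% were called, 3.34% higher and 2.45% lower, and the median log2 change was -0.08 over the tested members and 0.01 over all tested genes. In sorted cells, 18 transporters differed, 8 higher and 10 lower in hindbrain, against a background of 15.2% of all genes, 9.06% higher and 6.12% lower. The median was -0.24 over the members and -0.00 over all tested genes. When libraries were scaled by their totals alone, the split in sorted cells was 9 higher and 5 lower, and the median of all genes shifted to 0.20. Both comparisons called 7 transporters, which is 87.5% of those called in whole tissue and 38.9% of those called in sorted cells. Slc15a2, Slc1a2, Slc1a4, Slc6a15 and Slc7a11 were lower in hindbrain in both, Slc1a3 was higher in both, and Slc6a13 went opposite ways. The share of calls common to both comparisons was not computed over all genes.

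These counts moved with single libraries. The whole-tissue count was 5 without hindbrain replicate 1, 4 without hindbrain replicate 2, 2 without telencephalic replicate 1 and 4 without telencephalic replicate 2. The count in sorted cells was 10 without hindbrain replicate 1, 8 without telencephalic replicate 1 and 9 without telencephalic replicate 2.

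**Figure D2:**
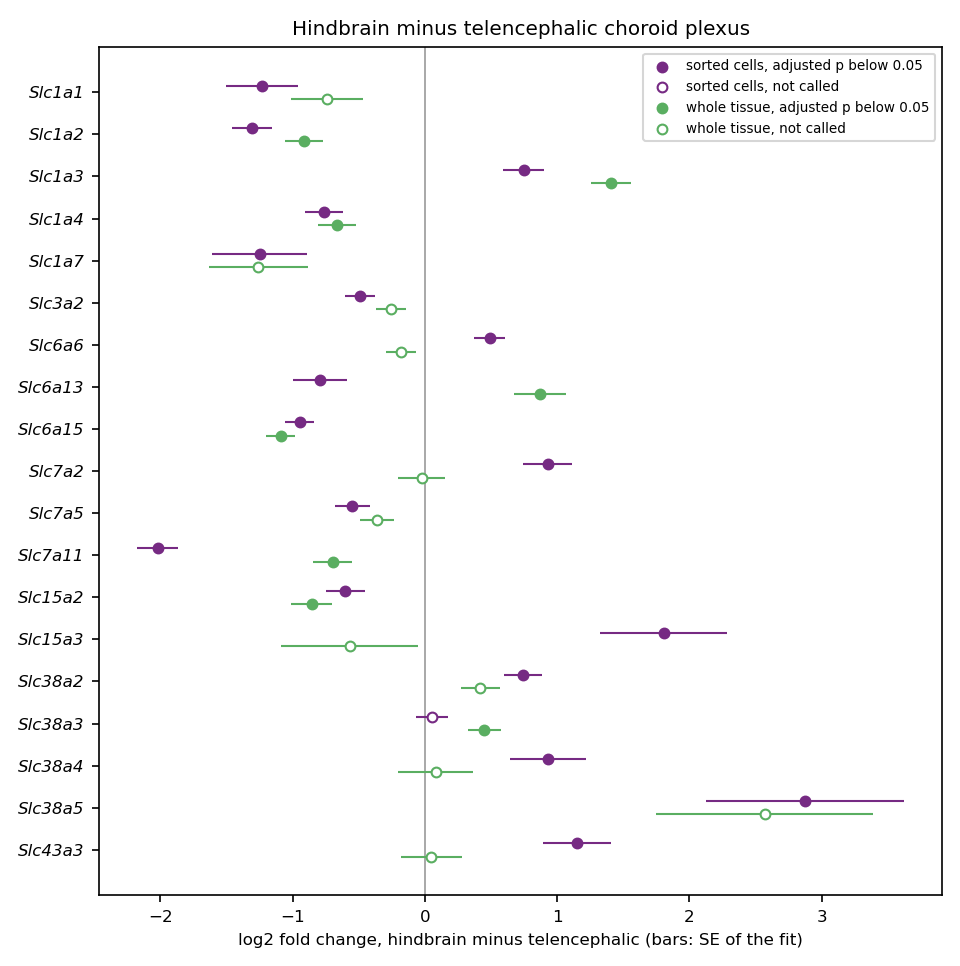
Log2 fold change, hindbrain minus telencephalic, of every transporter called in sorted cells (purple) or whole tissue (green), with bars for the SE of the fit and filled points for adjusted p below 0.05. Slc7a11 has the most negative value in sorted cells (-2.02), and Slc6a13 lies on opposite sides of 0.

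Among the carriers of broad neutral amino acids, Slc6a15 was lower in hindbrain. It stood at 1315 and 1163 CPM in hindbrain sorted cells, against 2301 and 2472 CPM in telencephalic sorted cells. Whole hindbrain tissue had 1099 and 1093 CPM, against 2465 and 2202 CPM in whole telencephalic tissue. The groups of the 2 regions did not overlap in either preparation. The log2 change was -0.95 ± 0.11 in sorted cells (adjusted p = 0.000101) and -1.09 ± 0.11 in whole tissue (adjusted p = 9.26e-05). Between same-numbered libraries, the hindbrain level was 0.571 and 0.471 times the telencephalic level in sorted cells and 0.446 and 0.496 times in whole tissue. Both calls held under every alternative tried. Slc6a17, a vesicular carrier of neutral amino acids in neurons, ranged between 43.5 and 68.5 CPM over the 8 libraries and was not called. In a fit with brain as a block, it was lower in hindbrain sorted cells (-0.38, adjusted p = 0.035).

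Slc7a11, the light subunit that takes up cystine in exchange for glutamate and so feeds glutathione synthesis, had the most negative region difference of the members called in sorted cells. It had 83.8 and 65.8 CPM in hindbrain sorted cells, against 309 and 298 CPM in telencephalic sorted cells (log2 change -2.02 ± 0.15, adjusted p = 4.41e-06). Whole hindbrain tissue had 125 and 99.1 CPM, against 168 and 196 CPM in whole telencephalic tissue (-0.70 ± 0.15, adjusted p = 0.0137). The telencephalic libraries were above the hindbrain libraries in both preparations, and the gap was wider in sorted cells. The difference between the gaps, sorted minus whole, was -1.32 ± 0.21 (adjusted p = 0.00743). The whole-tissue call ended without hindbrain replicate 2 or either telencephalic whole replicate and with scaling by library totals, where adjusted p reached 0.18. The difference between the gaps missed the threshold without telencephalic whole replicate 1 (adjusted p = 0.0664).

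Its heavy subunit Slc3a2, which also pairs with Slc7a5, Slc7a6, Slc7a7, Slc7a8 and Slc7a10, moved less. It had 191 and 227 CPM in hindbrain sorted cells, against 290 and 297 CPM in telencephalic sorted cells (-0.49 ± 0.11, adjusted p = 0.0128). In whole tissue the levels were 188 and 183 CPM in hindbrain and 231 and 212 CPM in telencephalic tissue, a change that was not called (-0.26 ± 0.12, adjusted p = 0.293). Per kilobase of exon, Slc7a11 averaged 5.37 ± 0.91 CPM per kb and Slc3a2 59.2 ± 7.2 CPM per kb in hindbrain sorted cells, and 21.8 ± 0.61 and 83.2 ± 1.3 CPM per kb in telencephalic sorted cells (SD, n = 2 each). Slc7a11 was the lower of the pair in each of the 4 groups on this scale. Slc7a5, the light subunit for large neutral amino acids, was at 30.6 and 33.3 CPM in hindbrain sorted cells, against 50.9 and 42.3 CPM in telencephalic sorted cells (-0.55 ± 0.13, adjusted p = 0.0136). The sorted-cell calls of Slc3a2 and Slc7a5 ended without hindbrain sorted replicate 1, without telencephalic sorted replicate 1 and with scaling by library totals. That of Slc3a2 also ended without telencephalic sorted replicate 2, and that of Slc7a5 with the 4 sorted libraries alone. Slc7a10 was at 65.6 and 79.8 CPM in hindbrain sorted cells and 97.0 and 99.0 CPM in telencephalic sorted cells, which was not called (adjusted p = 0.0798) but was in the fit with brain as a block (-0.44, adjusted p = 0.0285).

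**Figure D3:**
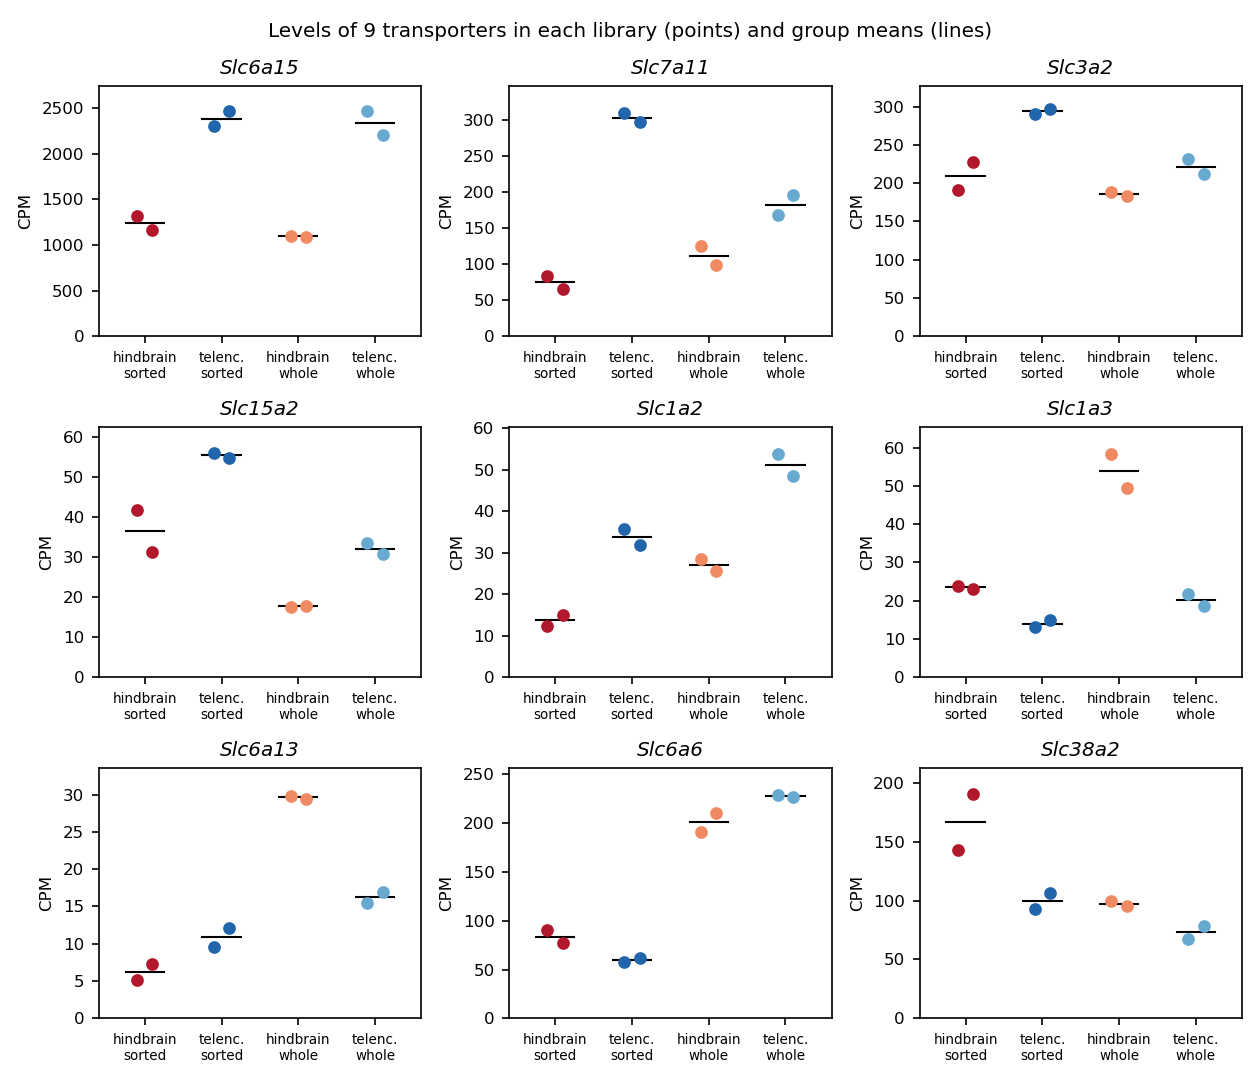
CPM of 9 transporters in each library (points) with group means (lines), for hindbrain sorted, telencephalic sorted, hindbrain whole and telencephalic whole. Slc6a15 and Slc7a11 are lower in hindbrain in both preparations, and Slc6a6 lies between 57.5 and 90.1 CPM in sorted cells and between 191 and 229 CPM in whole tissue.

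Of the 7 carriers of acidic amino acids and of alanine, serine and cysteine, all tested, 1 was higher and 4 were lower in hindbrain sorted cells (15.2% of all genes were called), and 1 was higher and 2 were lower in whole hindbrain tissue (5.79%). Slc1a2, the main glutamate transporter of astrocytes, had 12.5 and 14.9 CPM in hindbrain sorted cells, against 35.7 and 31.9 CPM in telencephalic sorted cells (-1.30 ± 0.15, adjusted p = 8.57e-05). Whole hindbrain tissue had 28.6 and 25.7 CPM, against 53.8 and 48.4 CPM in whole telencephalic tissue (-0.91 ± 0.15, adjusted p = 0.00226). Slc1a3, the glutamate transporter of radial glia, ran the other way. It had 24.0 and 23.0 CPM in hindbrain sorted cells, against 13.2 and 14.9 CPM in telencephalic sorted cells (0.75 ± 0.15, adjusted p = 0.00558). In whole tissue it had 58.3 and 49.5 CPM in hindbrain, against 21.8 and 18.7 CPM in telencephalic tissue (1.41 ± 0.15, adjusted p = 0.000151). Both genes kept the regions apart in all libraries, with opposite order. The call of Slc1a2 in whole tissue ended without telencephalic whole replicate 1 (adjusted p = 0.0574), and that of Slc1a3 in sorted cells without telencephalic sorted replicate 1 (adjusted p = 0.0789).

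Slc1a4, a carrier of alanine, serine and cysteine whose promoter is printed above, had 16 and 18 CPM in hindbrain sorted cells, against 29.3 and 28.3 CPM in telencephalic sorted cells (-0.76 ± 0.14, adjusted p = 0.00313). Whole hindbrain tissue had 25.8 and 25.6 CPM, against 43.7 and 37.5 CPM in whole telencephalic tissue (-0.66 ± 0.14, adjusted p = 0.0139). The whole-tissue call ended without any 1 of the 4 whole libraries (adjusted p up to 0.241). Slc1a1, a neuronal and epithelial glutamate and cysteine transporter, had 3.42 and 2.64 CPM in hindbrain sorted cells, against 7.64 and 6.57 CPM in telencephalic sorted cells (-1.23 ± 0.27, adjusted p = 0.00888). It missed the threshold without telencephalic sorted replicate 1 (adjusted p = 0.0756). Opposite-strand exons of 4430402I18Rik cover 31.9% of its exon length, and that gene had a log2 change of -0.64 ± 0.20 in the same comparison (adjusted p = 0.0502). The libraries mark no strand, so reads of such pairs cannot be told apart. Slc1a7, a retinal glutamate transporter, had 1.38 and 1.47 CPM in hindbrain sorted cells, against 2.80 and 4.03 CPM in telencephalic sorted cells (-1.25 ± 0.36, adjusted p = 0.0347). Its call ended under 10 of 14 alternatives (adjusted p up to 0.19), among them leaving out either telencephalic sorted replicate, hindbrain sorted replicate 1 or any whole library.

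Of the peptide carriers, 4 of 5 were tested. Slc15a2, the proton-coupled carrier that clears small peptides from cerebrospinal fluid, had 41.6 and 31.3 CPM in hindbrain sorted cells, against 55.9 and 54.8 CPM in telencephalic sorted cells (-0.60 ± 0.15, adjusted p = 0.0164). Whole hindbrain tissue had 17.7 and 17.8 CPM, against 33.4 and 30.7 CPM in whole telencephalic tissue (-0.85 ± 0.16, adjusted p = 0.00544). The regions did not overlap in either preparation. The call in sorted cells ended without hindbrain sorted replicate 2, without either telencephalic sorted replicate and with scaling by library totals (adjusted p up to 0.132), and that in whole tissue without telencephalic whole replicate 1 (adjusted p = 0.0968). Slc15a3, a lysosomal carrier of peptides and histidine found in macrophages, was the opposite: 2.47 and 3.96 CPM in hindbrain sorted cells, against 0.643 and 1.24 CPM in telencephalic sorted cells (1.81 ± 0.48, adjusted p = 0.024). Its whole-tissue levels of 1.01 and 0.708 CPM in hindbrain and 1.47 and 1.05 CPM in telencephalic tissue did not pass the test. Without hindbrain sorted replicate 2, without telencephalic sorted replicate 1 or with the 4 sorted libraries alone, the call in sorted cells ended. Opposite-strand exons of Tmem132a cover 28.1% of its exon length, and that gene was lower in hindbrain sorted cells (-0.74 ± 0.15, adjusted p = 0.00454).

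Among the sodium-coupled neutral carriers, 3 of 10 tested were higher in hindbrain sorted cells, where 9.06% of all genes were, and none lower. Slc38a2, the amino acid carrier induced by starvation, had 143 and 191 CPM in hindbrain sorted cells, against 92.9 and 106 CPM in telencephalic sorted cells (0.74 ± 0.15, adjusted p = 0.00424). It had 99.6 and 95.3 CPM in whole hindbrain tissue and 67.6 and 78.4 CPM in whole telencephalic tissue, which was not called (0.42 ± 0.15, adjusted p = 0.145). Slc38a4, which also takes cationic amino acids, had 8.22 and 4.73 CPM in hindbrain sorted cells, against 3.06 and 3.78 CPM in telencephalic sorted cells (0.93 ± 0.29, adjusted p = 0.0471). Slc38a5, a glutamine carrier, had 38 and 19 counts in hindbrain sorted cells, against 5 and 1 counts in telencephalic sorted cells (2.88 ± 0.75, adjusted p = 0.0214). Leaving out telencephalic sorted replicate 1 ended all 3 of these calls, with adjusted p up to 0.0699 for Slc38a2, 0.288 for Slc38a4 and 0.13 for Slc38a5. Those of Slc38a4 and Slc38a5 also ended without hindbrain sorted replicate 1, without telencephalic sorted replicate 2 and with the 4 sorted libraries alone. That of Slc38a4 ended too without any 1 whole library, and that of Slc38a5 without hindbrain whole replicate 2. Slc38a3 was called in whole tissue only, at 122 and 125 CPM in hindbrain, against 95.8 and 84.9 CPM in telencephalic tissue (0.45 ± 0.12, adjusted p = 0.0492), and the call ended without any 1 of the whole libraries or of the telencephalic sorted libraries (adjusted p up to 0.395). In sorted cells it had 158 and 163 CPM in hindbrain and 169 and 141 CPM in telencephalic cells, where the regions overlapped.

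Further members were higher in hindbrain sorted cells but did not differ detectably in whole tissue. Slc7a2, a carrier of arginine and lysine, had 22.3 and 16.9 CPM in hindbrain sorted cells, against 11.5 and 8.93 CPM in telencephalic sorted cells (0.93 ± 0.18, adjusted p = 0.00442). In whole tissue it had 24.6 and 23.7 CPM in hindbrain and 24.6 and 24.4 CPM in telencephalic tissue. The gap in sorted cells minus that in whole tissue was 0.95 ± 0.26 (adjusted p = 0.127), and it passed in the fit with brain as a block (0.96, adjusted p = 0.0313). Slc43a3, a purine nucleobase carrier, had 7.78 and 5.17 CPM in hindbrain sorted cells, against 3.37 and 2.36 CPM in telencephalic sorted cells (1.15 ± 0.26, adjusted p = 0.00973). Slc6a6, the taurine carrier, had 90.1 and 76.9 CPM in hindbrain sorted cells, against 57.5 and 61.5 CPM in telencephalic sorted cells (0.49 ± 0.12, adjusted p = 0.0146). The call of Slc7a2 ended without telencephalic sorted replicate 2. That of Slc43a3 ended without hindbrain sorted replicate 1 or telencephalic sorted replicate 2 and with the 4 sorted libraries alone. That of Slc6a6 ended without hindbrain sorted replicate 1 or either telencephalic sorted replicate. In the fit with brain as a block, Slc6a8 was also higher in hindbrain sorted cells (0.42, adjusted p = 0.0202) and Slc7a4 lower (-0.42, adjusted p = 0.0426).

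Markers of macrophages, mural cells and fibroblasts mostly moved with these members, and neuronal markers mostly did not. The background was 9.06% of all genes higher and 6.12% lower in hindbrain than in telencephalic sorted cells. All 12 macrophage markers, 8 of 10 mural markers and 8 of 11 tested fibroblast markers were higher in hindbrain than in telencephalic sorted cells, and 1 fibroblast marker was lower. Endothelial markers were higher for 5 and lower for 1 of 12, progenitor and glial markers higher for 3 and lower for 1 of 10, and neuronal markers higher for 1 and lower for 3 of 12. The summed macrophage markers were 209 and 171 CPM in hindbrain sorted cells, 36 and 58.1 CPM in telencephalic sorted cells, 195 and 196 CPM in whole hindbrain tissue and 144 and 164 CPM in whole telencephalic tissue. Mural markers summed to 296 and 265 CPM in hindbrain sorted cells, 76.7 and 69.8 CPM in telencephalic sorted cells, 385 and 466 CPM in whole hindbrain tissue and 405 and 425 CPM in whole telencephalic tissue. The fibroblast sums were 2348 and 1941 CPM in hindbrain sorted cells, 1499 and 1667 CPM in telencephalic sorted cells, 1897 and 2171 CPM in whole hindbrain tissue and 1657 and 1951 CPM in whole telencephalic tissue. No marker of these 3 lists was at 0 throughout any of the 4 groups. Their part in the higher levels of Slc15a3, Slc38a2, Slc38a4, Slc38a5, Slc7a2, Slc43a3, Slc6a6 and Slc1a3 was not tested. In bulk samples, fewer cells of a type and less RNA per cell cannot be told apart.

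**Figure D4:**
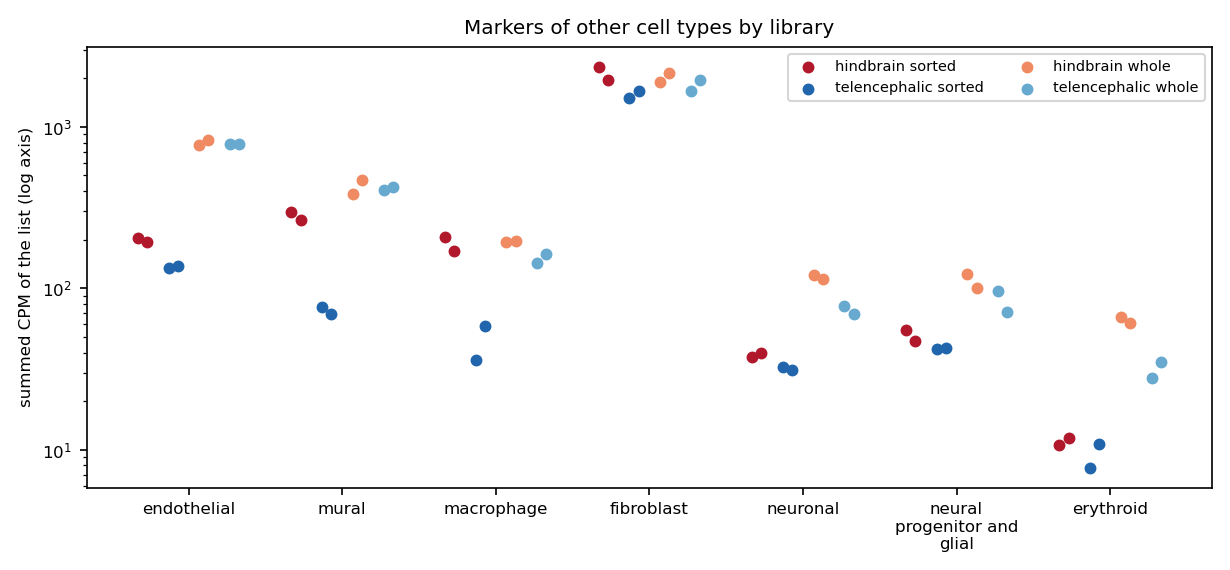
Summed CPM of marker lists of other cell types (log axis) in each library, coloured by group. Macrophage and mural sums are lower in telencephalic sorted cells than in the other groups, and endothelial sums are between 133 and 203 CPM in sorted cells and between 767 and 829 CPM in whole tissue.

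Slc6a13, a carrier of GABA and taurine known from fibroblasts at brain borders, was called in both preparations with opposite order of the regions. It had 5.13 and 7.30 CPM in hindbrain sorted cells, against 9.53 and 12.2 CPM in telencephalic sorted cells (-0.79 ± 0.20, adjusted p = 0.0206). Whole hindbrain tissue had 29.8 and 29.5 CPM, against 15.5 and 17.0 CPM in whole telencephalic tissue (0.87 ± 0.20, adjusted p = 0.019). Between same-numbered libraries the hindbrain level was 0.538 and 0.601 times the telencephalic level in sorted cells, and 1.93 and 1.73 times in whole tissue. The difference between the gaps was -1.67 ± 0.28 (adjusted p = 0.0105). It missed the threshold without telencephalic sorted replicate 2 or either telencephalic whole replicate (adjusted p up to 0.0945). The call in sorted cells ended without hindbrain sorted replicate 1 or telencephalic sorted replicate 2, with library totals and with the 4 sorted libraries alone. That in whole tissue ended without any 1 of the 4 whole libraries. In whole tissue, 4 of 11 fibroblast markers were higher and 1 lower in hindbrain (45.5% called, against 5.79% of all genes). In sorted cells, where Slc6a13 was lower in hindbrain, 8 of 11 fibroblast markers were higher and 1 lower (81.8%, against 15.2%). The part of fibroblasts in the level of Slc6a13 was not tested.

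Of the 51 members tested, Slc6a13 and Slc7a11 passed the test of a region difference that depends on preparation, against 1.34% of all genes. A miss does not show that the gaps were equal: Slc6a6 passed in DESeq2 (0.67, adjusted p = 0.0128; 0.0834 in edgeR), and Slc7a2 in the fit with brain as a block. Slc6a13 and Slc7a11 were on the lower side, where the background was 0.242% (1.1% on the higher side). The median over the members was -0.06. The count was 5 without hindbrain sorted replicate 2, 1 without telencephalic sorted replicate 2, 0 without telencephalic whole replicate 1 and 1 without telencephalic whole replicate 2.

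Sorted cells were next set against whole tissue of the same region. In hindbrain 22 transporters differed, 8 higher and 14 lower in sorted cells, with a background of 22.1% of all genes, 10.2% higher and 11.9% lower. In telencephalic choroid plexus 20 differed, 9 higher and 11 lower, with a background of 22.4%, 9.88% higher and 12.5% lower. The medians over the members were -0.07 in hindbrain and -0.10 in telencephalic choroid plexus, and 0.01 over all tested genes in both. With library totals alone the split was 5 higher and 16 lower in hindbrain and 3 higher and 18 lower in telencephalic choroid plexus, where the medians of all genes were -0.19 and -0.30. Both regions called 17 transporters, 77.3% of the hindbrain calls and 85% of the telencephalic calls. Of these, 7 were higher in both and 9 lower in both. Over all genes, the share of calls common to both regions was not computed. The hindbrain count was 13 without hindbrain whole replicate 1. The telencephalic count was 11 without telencephalic sorted replicate 1, 8 without telencephalic whole replicate 1 and 13 without telencephalic whole replicate 2.

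**Figure D5:**
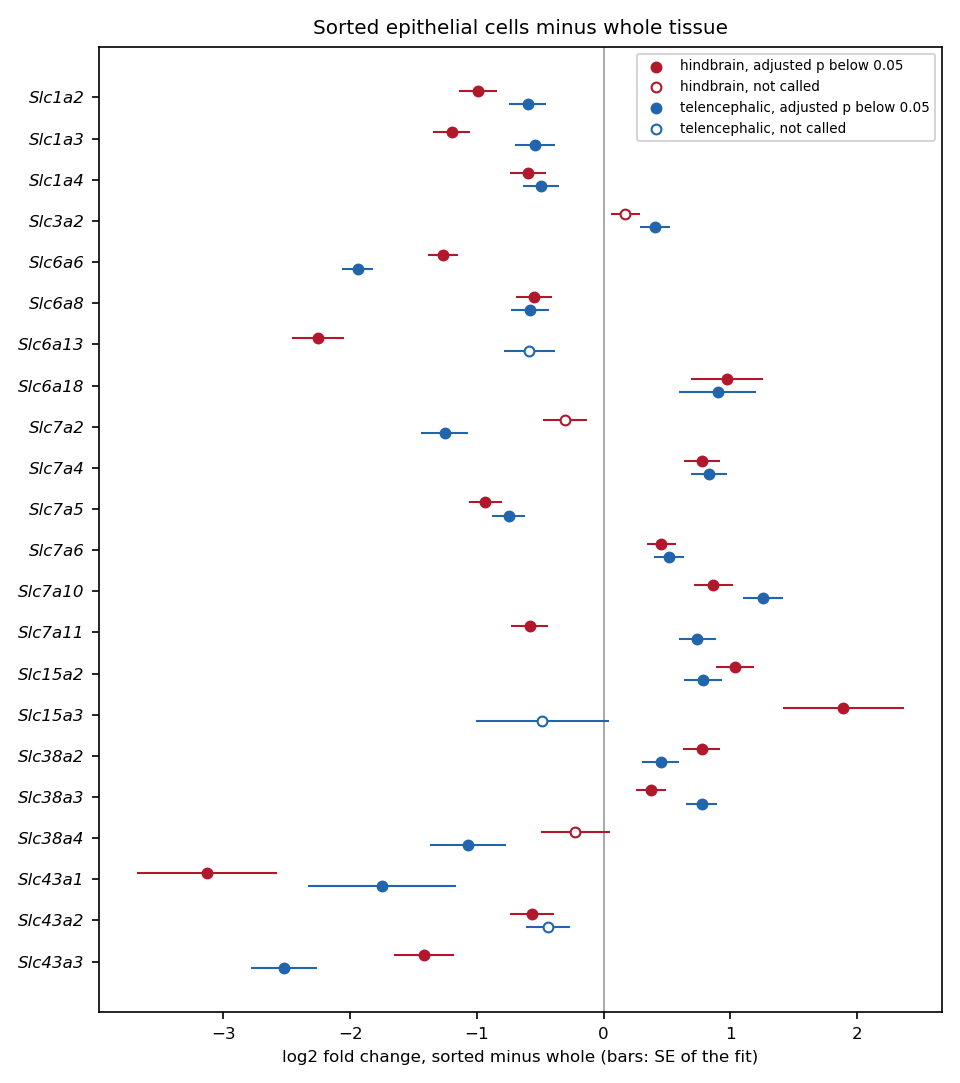
Log2 fold change, sorted cells minus whole tissue, of transporters called in hindbrain (red) or telencephalic (blue) choroid plexus, with bars for the SE of the fit and filled points for adjusted p below 0.05. Slc6a11 and Slc6a12, with few counts in sorted cells, are not drawn, and Slc7a11 lies on opposite sides of 0 in the 2 regions.

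Of the 6 carriers of GABA, taurine and creatine, 6 were lower in sorted cells in hindbrain, where 11.9% of all genes were lower, and 3 in telencephalic choroid plexus, where 12.5% were. Slc6a6 had 90.1 and 76.9 CPM in hindbrain sorted cells, against 191 and 211 CPM in whole hindbrain tissue (-1.27 ± 0.12, adjusted p = 1.55e-05). Telencephalic sorted cells had 57.5 and 61.5 CPM, against 229 and 227 CPM in whole telencephalic tissue (-1.94 ± 0.12, adjusted p = 3.82e-07). Slc6a11, the astrocytic GABA carrier, had no count in hindbrain sorted cells, against 42 and 25 counts in whole hindbrain tissue, which is at least 26.6-fold lower with a floor of 3 counts over the group (adjusted p = 0.00545). Slc6a12, a betaine and GABA carrier, had 2 and 1 counts in hindbrain sorted cells, against 43 and 20 counts in whole hindbrain tissue, a ratio of 25 with a counting interval between 8.17 and 124 (adjusted p = 0.00688). Slc6a13 was lower in hindbrain sorted cells (-2.25 ± 0.20, adjusted p = 1.21e-05) and did not pass in telencephalic cells (-0.59 ± 0.20, adjusted p = 0.056). Slc6a8, the creatine carrier, had 67.7 and 54.8 CPM in hindbrain sorted cells, against 91.6 and 87.6 CPM in whole hindbrain tissue (-0.55 ± 0.14, adjusted p = 0.0175). In telencephalic choroid plexus it had 51.5 and 40.4 CPM in sorted cells and 72.4 and 65.3 CPM in whole tissue (-0.58 ± 0.15, adjusted p = 0.0147). The hindbrain call of Slc6a12 ended without hindbrain whole replicate 1 (adjusted p = 0.0907). Those of Slc6a8 ended without either whole replicate or the second sorted replicate of the same region (up to 0.0837 in hindbrain and 0.14 in telencephalic choroid plexus).

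The Slc43 facilitators were also lower in sorted cells, 3 of 3 in hindbrain and 2 of 3 in telencephalic choroid plexus (11.9% and 12.5% of all genes). Slc43a1, a facilitator of large neutral amino acids, had 0.327 and 0.477 CPM in hindbrain sorted cells, against 4.27 and 2.83 CPM in whole hindbrain tissue (-3.13 ± 0.55, adjusted p = 0.00187). In telencephalic choroid plexus it had 0.265 and 0.806 CPM in sorted cells, against 1.90 and 1.47 CPM in whole tissue (-1.75 ± 0.58, adjusted p = 0.0491). This telencephalic call of Slc43a1 ended in DESeq2. Slc43a3 had 7.78 and 5.17 CPM in hindbrain sorted cells, against 15.5 and 19.2 CPM in whole hindbrain tissue (-1.42 ± 0.24, adjusted p = 0.00127). It had 3.37 and 2.36 CPM in telencephalic sorted cells, against 16.1 and 17.4 CPM in whole telencephalic tissue (-2.52 ± 0.26, adjusted p = 2.79e-05). Slc43a2, another facilitator of large neutral amino acids, had 8.84 and 10.7 CPM in hindbrain sorted cells, against 13.7 and 15.2 CPM in whole hindbrain tissue (-0.56 ± 0.17, adjusted p = 0.0331). The telencephalic call of Slc43a1 ended without telencephalic sorted replicate 1 or any 1 whole library. The hindbrain call of Slc43a2 ended without hindbrain sorted replicate 1 or any 1 whole library and with the 4 hindbrain libraries alone.

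Other members that were lower in sorted cells of both regions were Slc1a2, Slc1a3, Slc1a4 and Slc7a5. Slc1a2 changed by -0.99 ± 0.15 in hindbrain (adjusted p = 0.000664) and -0.60 ± 0.15 in telencephalic choroid plexus (adjusted p = 0.0119), and Slc1a3 by -1.20 ± 0.15 (adjusted p = 0.000158) and -0.54 ± 0.16 (adjusted p = 0.0284). For Slc1a4 the changes were -0.59 ± 0.14 (adjusted p = 0.0111) in hindbrain and -0.50 ± 0.14 (adjusted p = 0.0254) in telencephalic choroid plexus. Slc7a5 had 30.6 and 33.3 CPM in hindbrain sorted cells, against 62.6 and 59.3 CPM in whole hindbrain tissue (-0.93 ± 0.13, adjusted p = 0.000361). It had 50.9 and 42.3 CPM in telencephalic sorted cells, against 81.3 and 75.4 CPM in whole telencephalic tissue (-0.75 ± 0.13, adjusted p = 0.00153). Slc7a2 and Slc38a4 were lower in telencephalic sorted cells alone among the calls (-1.25 ± 0.19, adjusted p = 0.000514, and -1.07 ± 0.30, adjusted p = 0.0224), with hindbrain values of -0.30 and -0.22. The telencephalic calls of Slc1a3, Slc1a4 and Slc38a4 ended without any 1 of the 4 telencephalic libraries (adjusted p up to 0.254, 0.247 and 0.147). That of Slc1a2 ended without telencephalic sorted replicate 2 or telencephalic whole replicate 1 (up to 0.133), and the hindbrain call of Slc1a4 without either hindbrain whole replicate (up to 0.054).

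Markers of other cell types were compared in the same way, and the lists did not all move alike. Of all genes, 11.9% were lower in hindbrain sorted cells and 12.5% in telencephalic sorted cells, and 10.2% and 9.88% were higher. All 12 endothelial markers were lower in sorted cells of both regions, with sums of 203 and 194 CPM in hindbrain sorted cells, 133 and 138 CPM in telencephalic sorted cells, 767 and 829 CPM in whole hindbrain tissue and 779 and 787 CPM in whole telencephalic tissue. Neuronal markers were lower for 9 of 12 in hindbrain and 7 of 12 in telencephalic choroid plexus, and summed to 37.6 and 39.6 CPM in hindbrain sorted cells, 32.5 and 31.0 CPM in telencephalic sorted cells, 121 and 114 CPM in whole hindbrain tissue and 78.2 and 69.4 CPM in whole telencephalic tissue. Of 10 tested progenitor and glial markers, 6 were lower in hindbrain and 3 lower and 1 higher in telencephalic sorted cells. Their sums were 54.9 and 47.3 CPM in hindbrain sorted cells, 41.8 and 42.9 CPM in telencephalic sorted cells, 123 and 100 CPM in whole hindbrain tissue and 95.7 and 71.6 CPM in whole telencephalic tissue. Sox10 was at 0 in both sorted groups and in whole telencephalic tissue, and Olig1, Olig2 and Gap43 were at 0 in telencephalic sorted cells. Erythroid markers summed to 10.7 and 11.8 CPM in hindbrain sorted cells, 7.75 and 10.9 CPM in telencephalic sorted cells, 66.7 and 61.1 CPM in whole hindbrain tissue and 27.8 and 34.9 CPM in whole telencephalic tissue, with the globin genes Hba-a1, Hba-a2, Hbb-b1 and Hbb-b2 listed at 0 in every library. Macrophage markers were lower for 1 of 12 in hindbrain (8.33%, below the share of all genes) and 10 of 12 in telencephalic sorted cells (83.3%). Mural markers were lower for 5 and 9 of 10 (50% and 90%). Fibroblast markers were higher for 2 and lower for 1 of 11 in hindbrain, and lower for 7 of 11 in telencephalic sorted cells. The part of these cells in the lower levels was not tested.

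Members higher in sorted cells of both regions were Slc15a2, Slc38a2, Slc38a3, Slc6a18, Slc7a10, Slc7a4 and Slc7a6. Slc15a2 changed by 1.04 ± 0.15 in hindbrain (adjusted p = 0.000552) and 0.79 ± 0.15 in telencephalic choroid plexus (adjusted p = 0.00319), where the call ended with library totals (0.47, adjusted p = 0.0602). Slc7a10, with 65.6 and 79.8 CPM in hindbrain sorted cells, against 33.5 and 46.3 CPM in whole hindbrain tissue, changed by 0.87 ± 0.16 (adjusted p = 0.00212). Its telencephalic levels were 97.0 and 99.0 CPM in sorted cells, against 39.9 and 42.0 CPM in whole tissue (1.26 ± 0.16, adjusted p = 0.000148). Slc7a4, a relative of the cationic carriers whose substrate is not settled, had 26.6 and 31.3 CPM in hindbrain sorted cells, against 16.9 and 16.9 CPM in whole hindbrain tissue (0.78 ± 0.14, adjusted p = 0.00224). It had 38 and 39.2 CPM in telencephalic sorted cells, against 21.7 and 21.6 CPM in whole telencephalic tissue (0.83 ± 0.14, adjusted p = 0.00142). Opposite-strand exons of Lrp3 cover 17.9% of the exon length of Slc7a10, and those of P2rx6 cover 13.3% of that of Slc7a4; neither partner was called.

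Slc7a6, the light subunit that exchanges cationic for neutral amino acids, had 57.7 and 61.2 CPM in hindbrain sorted cells, against 43.4 and 43.1 CPM in whole hindbrain tissue (0.46 ± 0.12, adjusted p = 0.0146). In telencephalic choroid plexus it had 71.2 and 66.0 CPM in sorted cells, against 49.3 and 46.4 CPM in whole tissue (0.52 ± 0.12, adjusted p = 0.00782). The changes of Slc38a2 were 0.77 ± 0.15 in hindbrain (adjusted p = 0.00281) and 0.45 ± 0.15 in telencephalic choroid plexus (adjusted p = 0.0461), and those of Slc38a3 were 0.38 ± 0.12 (adjusted p = 0.0402) and 0.77 ± 0.12 (adjusted p = 0.000757). Slc6a18, a kidney carrier of glycine and other neutral amino acids, had 6.11 and 5.21 CPM in hindbrain sorted cells, against 2.78 and 2.97 CPM in whole hindbrain tissue (0.98 ± 0.29, adjusted p = 0.0287). Telencephalic sorted cells had 6.20 and 5.15 CPM, against 2.45 and 3.77 CPM in whole telencephalic tissue (0.90 ± 0.30, adjusted p = 0.0495). The telencephalic calls of Slc38a2 and Slc6a18 ended without any 1 of the telencephalic or whole libraries (up to 0.55 and 0.373). The hindbrain calls of Slc38a3 and Slc6a18 ended without hindbrain sorted replicate 1 or either hindbrain whole replicate, that of Slc38a3 also without hindbrain sorted replicate 2 or either telencephalic whole replicate (up to 0.349 and 0.145). Those of Slc7a6 ended without either hindbrain whole replicate (up to 0.158) and, in telencephalic choroid plexus, without telencephalic sorted replicate 1 or either telencephalic whole replicate (up to 0.264). With library totals, the calls of Slc7a6 and Slc6a18 ended in both regions, that of Slc38a3 in hindbrain and that of Slc38a2 in telencephalic choroid plexus. The log2 changes were then 0.26 and 0.20 for Slc7a6 and 0.78 and 0.58 for Slc6a18 (hindbrain, then telencephalic). They were 0.18 for Slc38a3 and 0.13 for Slc38a2. DESeq2-style size factors also ended the telencephalic calls of Slc38a2 and Slc6a18, and DESeq2 ended that of Slc6a18. With the 4 hindbrain libraries alone, the hindbrain calls of Slc38a3, Slc6a18 and Slc7a6 ended.

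Slc7a11 was lower in hindbrain sorted cells than in whole hindbrain tissue (-0.58 ± 0.15, adjusted p = 0.0147) and higher in telencephalic sorted cells than in whole telencephalic tissue (0.74 ± 0.15, adjusted p = 0.00368). The first of these calls ended without hindbrain sorted replicate 2 or hindbrain whole replicate 1 (up to 0.131), and the other without telencephalic whole replicate 1 or with library totals (up to 0.0868). Slc3a2 was higher in telencephalic sorted cells (0.41 ± 0.12, adjusted p = 0.0249), with a hindbrain value of 0.17 ± 0.11 that did not pass (adjusted p = 0.313), and its call ended without any 1 of the 4 telencephalic libraries or with library totals (up to 0.631). Slc15a3 was higher in hindbrain sorted cells (1.89 ± 0.48, adjusted p = 0.0142), and that call ended without hindbrain sorted replicate 2 or either hindbrain whole replicate (up to 0.119). Slc6a15 did not pass in hindbrain (0.18 ± 0.11, adjusted p = 0.278) or in telencephalic choroid plexus (0.03 ± 0.11, adjusted p = 0.868).

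The members with the highest CPM, not corrected for length, among those called in none of the comparisons covered several roles. Slc7a8 lay between 197 and 274 CPM over the 8 libraries, Slc7a1, a carrier of arginine and lysine, between 146 and 194 CPM, and Slc38a1, a glutamine carrier, between 123 and 171 CPM. The others were Slc38a10 (44.0 to 62.6 CPM), Slc6a17 and, of the Slc36 family, Slc36a4 (18.4 to 27.7 CPM) and Slc36a1 (12.9 to 23.0 CPM). Slc38a9, the lysosomal arginine sensor of the mTORC1 pathway, ranged from 15 to 22.4 CPM. A miss of the threshold does not show that these levels were equal. Slc7a7, Slc6a9 and Slc3a1, also never called, share exon sequence with opposite-strand genes, Oxa1l over 7.0%, Ccdc24 over 27.8% and Prepl over 26.5% of their exon lengths.

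Amino acid carriers outside these families were examined from a list. Of 16 tested, 2 were higher and 1 lower in whole hindbrain than in whole telencephalic tissue, and 1 was higher in hindbrain sorted cells. These are 18.8% and 6.25% of the list, against 5.79% and 15.2% of all genes. Slc16a10, a facilitator of aromatic amino acids and thyroid hormones, averaged 457 ± 17 CPM in hindbrain sorted cells and 153 ± 14 CPM in telencephalic sorted cells (SD, n = 2 each; log2 change 1.58 ± 0.11, adjusted p = 3.38e-06 in edgeR). It averaged 356 ± 16 CPM in whole hindbrain tissue and 153 ± 7.6 CPM in whole telencephalic tissue (1.21 ± 0.11, adjusted p = 4.95e-05). Slc6a20a, a proline carrier, was higher in whole hindbrain tissue (0.72 ± 0.16, adjusted p = 0.0191), and Slc17a8, a vesicular glutamate carrier, was lower there (-1.82 ± 0.29, adjusted p = 0.0023). Between sorted cells and whole tissue, 1 was higher and 2 lower in hindbrain and 3 lower in telencephalic choroid plexus (18.8% in each, against 22.1% and 22.4% of all genes). Slc17a6, the vesicular glutamate carrier of excitatory neurons, and Slc25a12, a mitochondrial aspartate and glutamate carrier, were lower in both.

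Of the 27 genes of the amino acid starvation response, which includes Atf4 and its targets, 3 were higher and 4 lower in hindbrain than in telencephalic sorted cells (25.9% called, against 15.2% of all genes), and 1 was higher in whole hindbrain tissue (3.7%, against 5.79%). Psat1, an enzyme of serine synthesis, was higher in hindbrain in both, with changes of 0.94 ± 0.17 in sorted cells (adjusted p = 0.00241) and 1.13 ± 0.17 in whole tissue (adjusted p = 0.00147). Asns, asparagine synthetase, was lower in hindbrain sorted cells (-0.93 ± 0.27, adjusted p = 0.0333). Sorted cells against whole tissue had 6 higher and 2 lower in hindbrain and 5 higher and 3 lower in telencephalic choroid plexus (29.6% called in each, against 22.1% and 22.4% of all genes). Atf3, a stress-induced transcription factor, was higher in sorted cells by 5.65 ± 0.34 in hindbrain (adjusted p = 3.55e-07) and 4.2 ± 0.42 in telencephalic choroid plexus (adjusted p = 2e-05). It was also higher in hindbrain than in telencephalic sorted cells (1.96 ± 0.26, adjusted p = 0.000263). Atf4 was higher in sorted cells by 1.38 ± 0.13 in hindbrain (adjusted p = 2.32e-05) and 1.18 ± 0.14 in telencephalic choroid plexus (adjusted p = 7.52e-05). Asns was lower, by -2.06 ± 0.26 in hindbrain (adjusted p = 0.000189) and -1.59 ± 0.26 in telencephalic choroid plexus (adjusted p = 0.00087).

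Of the 15 genes of glutathione synthesis and use, which Slc7a11 supplies with cystine, 3 were higher and 4 lower in hindbrain than in telencephalic sorted cells (46.7% called, against 15.2% of all genes), and 1 was higher and 1 lower in whole hindbrain tissue (13.3%, against 5.79%). Gclc and Gclm, the subunits of the rate-limiting enzyme, were not called in any comparison. Ggt1, which breaks down extracellular glutathione, was lower in hindbrain sorted cells (-1.26 ± 0.24, adjusted p = 0.00329), and Gpx3, a secreted peroxidase, was higher (2.42 ± 0.18, adjusted p = 4.71e-06). Of 21 tested genes of amino acid sensing by mTORC1, 2 were lower in hindbrain sorted cells, Lamtor2 and Sesn3 (9.52%, against 15.2% of all genes called), and none was called in whole tissue, where none of the 21 had an unadjusted p below 0.05 in edgeR.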

How the data were processed

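RNA was isolated, pre-amplified with the NuGEN Ovation system and sequenced as paired-end Illumina libraries, per the labels' protocols, which mark no strand. HTSeq, DESeq 1, CASAVA 1.8.2, Bowtie2 2.0.5, TopHat2 2.0.4 and build mm9 are listed in the submitters' processing notes; the sources used here do not give the annotation or strand setting. As deposited by the authors, the table holds whole-number counts per gene and library, not normalized, and no column belonged to another sample.

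From these counts edgeR 4.0.16 (R 4.3.3) was run on all 8 libraries: filterByExpr (minimum count 10, total 15), TMM scaling, 4 group means, a quasi-likelihood fit and Benjamini-Hochberg adjustment over 15698 genes. The SE is the log2 change divided by the root of F. CPM uses TMM-scaled totals. The script was tested on simulated data. The libraries hold no molecular identifiers, so intervals and floors cover counting error only. The 2 regions share brains by the series' design text, and deviations of same-numbered libraries correlated at 0.15 in sorted cells and 0.30 in whole tissue; the fit with brain as a block was an alternative. Other alternatives were DESeq2 1.42.0, DESeq2-style size factors, library totals, no low-count filter, the 4 libraries of a comparison alone and leaving out each library.

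Members called in a comparison, the 8 never called with the highest mean CPM and all that failed the filter are named; 1 called member is counted but not reported here. Of the other lists, named genes are examples chosen after their values were seen. The members and lists were chosen with earlier results of these data known. Promoter windows and exon lengths come from RefSeq GRCm38.p6 and GENCODE M21.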

Additional observations from a re-analysis of the deposited data

Results flagged for a closer look

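The region difference of 2 transporters differed between sorted cells and whole tissue by the test of that difference in edgeR. For Slc7a11 the hindbrain minus telencephalic log2 change was -2.02 in sorted cells and -0.70 in whole tissue, and the difference between them was -1.32 (adjusted p = 0.00743). For Slc6a13 the changes were -0.79 in sorted cells and 0.87 in whole tissue, and the difference was -1.67 (adjusted p = 0.0105).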

How the results depend on the processing

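The 70 calls of single transporters were recomputed under the alternatives, giving 936 values, of which 772 kept the call, 164 lost it and 0 reversed its direction, and 26 calls were never lost. Leaving out 1 library at a time gave counts of called transporters from 2 to 11 for the regions in whole tissue (8 with all libraries), from 8 to 22 for the regions in sorted cells (18), from 13 to 22 for sorted against whole in hindbrain (22), from 8 to 25 for sorted against whole in telencephalic choroid plexus (20) and from 0 to 5 for the difference between the region gaps (2). Fits without a library estimate the spread of a lone library from the other groups. With the 4 sorted libraries alone, 11 transporters were called between the regions in sorted cells, a fit with fewer samples. With no low-count filter, 4 were called for the difference between the region gaps. DESeq2 called 8 and 17 between the regions in whole tissue and sorted cells, 22 and 18 between preparations in hindbrain and telencephalic choroid plexus, and 3 for the difference between gaps. In the fit with brain as a replicate block, 8 transporters were called between the regions in whole tissue, 22 in sorted cells and 3 for the difference between gaps, and no call was lost. No paired analysis was possible because sorted and whole libraries came from different brains, for the preparation comparisons alone. Scaling by library totals shifted the median of all genes by 0.20 in the sorted region comparison, -0.19 and -0.30 in the hindbrain and telencephalic preparation comparisons and 0.12 in the difference between gaps. With 2 libraries a group and 1 library of 8849053 counts, members below about 1 CPM rest on few counts.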
